A study of Mus musculus with 12 samples.

Results

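The myocyte enhancer factor 2 (Mef2) family of the mouse has 4 genes, Mef2a, Mef2b, Mef2c and Mef2d, which are 4 of the 22310 gene symbols counted in these libraries. They were chosen by symbol, after earlier results from these data were known, so their levels and changes are given as a description, with no test. Of the 4 members, 3 passed the filter on low counts that was applied before fitting (Mef2a, Mef2c and Mef2d), and Mef2b did not.

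MEF2 proteins are MADS-box transcription factors that bind A/T-rich sites in the control regions of muscle genes and act together with the MyoD family of basic helix-loop-helix factors. Class IIa histone deacetylases such as Hdac7 hold them silent, and calcium-dependent phosphatase and kinases, MAP kinases of the p38 and Erk5 groups and histone acetyltransferases release or strengthen their activity. In regenerating muscle they take part in the step from dividing muscle progenitor to fusing, contractile cell.

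The libraries are RNA-seq of satellite cells, the stem cells of skeletal muscle, isolated from hindlimb muscle of C57BL/6 mice 3 days after the muscle was injured by BaCl2. The 4 groups, of 3 libraries each, were wildtype mice of 3 to 4 months, wildtype mice of 22 to 28 months, Hoxa9 knock-out mice of 3 to 4 months and Hoxa9 knock-out mice of 22 to 28 months, called here young and old wild type and young and old knockout. Hoxa9 encodes a posterior homeobox transcription factor; the labels give the genotype without naming the allele or the cells in which it was deleted. All 4 groups were injured, so no uninjured level is given. Whether each library is 1 animal or a pool is not in the labels, so errors and p-values measure the spread between these libraries, which may be technical.

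Several facts of the libraries touch every genotype comparison below. Reads assigned to genes ranged from 4193433 to 20337015 per library. Hoxa9 itself was at 7.96 to 22.5 CPM (read count scaled by the size of the library) in the 6 wild-type libraries and 4.55 to 7.21 CPM in the 6 knockout libraries, where 22 to 87 reads per library remained; which exons those reads fell in was not analysed here. Satellite cell markers (11 of 11 detected in every group, among them Pax7 and Myf5) summed to 7935 to 9158 CPM in young wild type. They summed to 7418 to 7839 CPM in old wild type, 6136 to 9637 CPM in young knockout and 7054 to 7958 CPM in old knockout. The level of a gene relative to its mean over the 12 libraries rose with its GC content in every wild-type library (Spearman's rho across genes 0.226 to 0.471). In every knockout library this relative level fell with GC content (rho -0.525 to -0.125). The share of reads on Lars2 was 0.0258% to 0.11% in wild type against 0.484% to 25.0% in knockout. Genotype and this difference in library composition cannot be told apart, so beside the main values those fitted with a GC correction per library ("with GC offsets") are given. Old knockout replicates 2 and 3 carried reads of the Y-linked gene Ddx3y at 125.1 and 150.5 CPM, against at most 5.11 CPM in the other libraries. The Y-linked gene Kdm5d was at 36.7 and 38.1 CPM in them, against at most 1.05 CPM in the others. Xist was at 17.1 and 34.9 CPM in them, against 479 to 2031 CPM in the others. Old knockout is thus the only group whose libraries differ in this way.

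The promoters of the 3 expressed genes are shown because the members differ in base composition as well as in their response. Each is 300 bases long, from 250 bases before the RefSeq start site to 50 after it, on mouse build GRCm38.p6, and the sequences are RefSeq's. Capitals mark the consensus site of MEF2 in the Mef2a promoter and the letters TTTAT, the core recognised by posterior HOX proteins, in that of Mef2c. The Mef2a window is chr7:67372809-67373108 on the minus strand, the Mef2d window is chr3:88142122-88142421 on the plus strand, and the Mef2c window, the first of 3 listed for this gene, is chr13:83503784-83504083 on the plus strand.
Mef2a: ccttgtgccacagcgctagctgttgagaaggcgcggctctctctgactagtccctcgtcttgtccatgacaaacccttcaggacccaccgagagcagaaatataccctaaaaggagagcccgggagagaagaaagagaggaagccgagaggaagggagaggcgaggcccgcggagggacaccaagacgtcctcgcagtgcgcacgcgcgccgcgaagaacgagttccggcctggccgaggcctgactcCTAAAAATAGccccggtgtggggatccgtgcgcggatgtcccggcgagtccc
Mef2d: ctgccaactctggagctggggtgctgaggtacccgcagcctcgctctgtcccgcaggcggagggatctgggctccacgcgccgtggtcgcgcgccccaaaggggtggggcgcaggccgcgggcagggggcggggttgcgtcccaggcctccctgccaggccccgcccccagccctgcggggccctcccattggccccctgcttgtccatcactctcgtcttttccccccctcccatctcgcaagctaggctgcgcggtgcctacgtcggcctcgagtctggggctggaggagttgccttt
Mef2c: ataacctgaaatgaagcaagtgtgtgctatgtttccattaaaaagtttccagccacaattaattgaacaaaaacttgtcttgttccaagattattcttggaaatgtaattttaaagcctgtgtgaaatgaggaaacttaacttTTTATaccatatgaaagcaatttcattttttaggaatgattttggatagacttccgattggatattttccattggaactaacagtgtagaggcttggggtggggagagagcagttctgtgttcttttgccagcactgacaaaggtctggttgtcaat

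The 4 motifs searched on both strands were the MEF2 consensus, the SRF CArG box, the E-box CANNTG bound by MyoD-type factors, and TTTAT. In the windows shown, no match of a motif overlapped a match of another. The Mef2a promoter was 62.3% GC with 27 CpG dinucleotides, and held 1 MEF2 consensus, CTAAAAATAG, that began 2 bases before the start site. Such a match was found in 3.19% of 32851 RefSeq promoters. The Mef2d promoter was the most GC-rich of the 3, at 72% with 24 CpG, and held none of the 4 motifs. The Mef2c window was 35.7% GC with 1 CpG and held 2 E-boxes and 1 TTTAT, which are found in 72.3% and 40% of the promoters. The other Mef2c windows, not shown, differed from it: the second was 47% GC with 10 CpG, 4 TTTAT and no E-box, and the third 48.3% GC with 4 CpG, 1 E-box and no TTTAT. The median promoter was 52.7% GC with 7 CpG. These matches describe letters in a window, not sites in use.

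Mef2d was the member with the narrowest spread relative to its mean in wild type and the one that was lower in every knockout library. The SD was 1.42% of the mean in young and 1.25% in old wild type. With 3 libraries per group, and with counting error not set beside it, nothing is read from how narrow this spread was. MEF2D is the family member whose muscle-specific splice form activates late muscle genes; the counts are per gene and do not separate splice forms. In young wild type its level was 141.5, 145.5 and 142.8 CPM, a mean of 143 ± 2.03 (SD, n = 3). In old wild type it was 165.6, 165.4 and 169.1 CPM (167 ± 2.08, SD, n = 3), so the 2 ages did not overlap. In young knockout it was 77.3, 57.3 and 76.3 CPM (70.3 ± 11.3), and in old knockout it was 63.3, 62.5 and 50.3 CPM (58.7 ± 7.29, SD, n = 3). All 6 knockout libraries lay below all 6 wild-type libraries, while the young and old knockout overlapped. From high to low, the order of the groups was old wild type, young wild type, young knockout and old knockout, and only the last neighbours overlapped. Of all genes tested, the groups did not overlap for 26.8% with ageing in wild type. For knockout against wild type this was 35.7% in young and 42.0% in old mice. The share of genes that separate all 6 from all 6 libraries was not computed, so nothing is read from this separation.

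On the log2 scale, Mef2d differed between knockout and wild type by -1.03 ± 0.13 (SE) in young mice, 2.04-fold lower, and by -1.50 ± 0.14 in old mice, 2.83-fold lower. With GC offsets the differences were -0.71 and -1.27. Without the 2 libraries that carried Y-linked reads, the old knockout is 1 library, and the value was -1.39. Ageing went with 0.22 ± 0.13 in wild type and -0.25 ± 0.14 in knockout, and the difference of these, the interaction of age and genotype, was -0.47 ± 0.19. Markers of choroid plexus (7 genes, among them Ttr) summed to 109 to 6049 CPM in wild type against 9.50 to 25.8 CPM in knockout, with Ttr at 0 in all knockout libraries. Tendon markers (8 genes) summed to 93.3 to 194 CPM in young wild type against 223 to 393 CPM in young knockout. In old mice the sums were 40.2 to 55.6 CPM against 113 to 1201 CPM. Among these genes Scx was not higher in knockout, with means of 25.1 against 13.7 CPM in young mice and 23.6 against 23.1 CPM in old mice. The remaining tendon markers had higher means in knockout at both ages. In young mice, myofibre markers were at 1043 to 1330 CPM in wild type against 493 to 981 CPM in knockout. In old mice, myofibre markers were at 1450 to 1580 CPM in wild type, and at 1823, 542 and 629 CPM in knockout, in replicate order. Fibroblast markers were at 9696 to 11890 CPM against 6559 to 8059 CPM in young mice. In old mice they were at 5385 to 6516 CPM against 6337 to 10310 CPM. Most of this sum was Col1a1, Col1a2 and Col3a1, which were lower in young knockout, as was Pdgfra. The remaining fibroblast markers Dcn, Lum, Dpt, Cd34 and Pi16 were higher there, with Dcn at 193 CPM against 38.4 CPM in young wild type. In old mice, pericyte markers were at 2828 to 2911 CPM in wild type against 3064 to 3586 CPM in knockout. The part of these in the Mef2 values and in the lists below was not tested.

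Mef2a, a broadly expressed member, had levels that overlapped between all 4 groups. In young wild type it was at 161.8, 112.5 and 154.6 CPM (143 ± 26.6, SD, n = 3) and in old wild type at 143.2, 169.9 and 186.7 CPM (167 ± 22.0). In young knockout it was at 162.5, 133.2 and 119.3 CPM (138 ± 22.1) and in old knockout at 181.0, 151.0 and 127.3 CPM (153 ± 27.0). The highest library was 1.66 times the lowest. The knockout differed from wild type by -0.05 ± 0.18 (SE) in young mice and -0.12 ± 0.18 in old mice on the log2 scale. With GC offsets these were -0.45 and -0.46, so the level of Mef2a in knockout relative to wild type depended on that correction. The GC content of the Mef2a transcript was 42%, against 55% for Mef2d and a median of 49.9% over the genes tested.

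**Figure D1:**
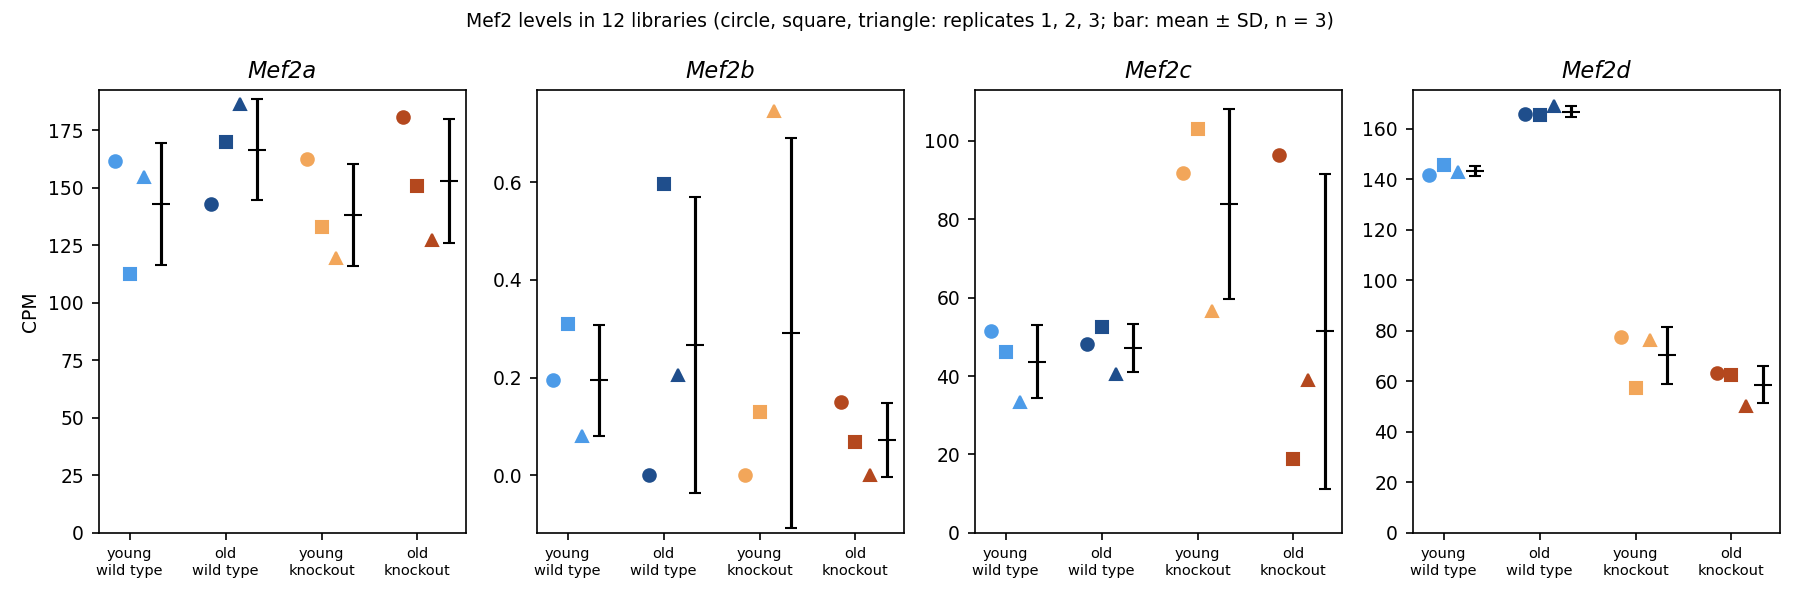
Level of each Mef2 gene in CPM (linear axes) in the 12 libraries, with the mean and SD of 3 libraries per group. Mef2d lay between 141.5 and 169.1 CPM in wild type and between 50.3 and 77.3 CPM in knockout, Mef2a overlapped in all groups, Mef2c was widely spread in knockout, and Mef2b stayed under 1 CPM.

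Mef2c, the member that is switched on as myoblasts differentiate and that is also found in vessel endothelium and in macrophages, was the most variable. In young wild type it was at 51.4, 46.1 and 33.4 CPM (43.7 ± 9.25, SD, n = 3) and in old wild type at 48.1, 52.6 and 40.5 CPM (47.1 ± 6.13). In young knockout it was at 91.8, 103.1 and 56.7 CPM (83.8 ± 24.2), above all wild-type libraries. Young knockout and young wild type did not overlap for 35.7% of all genes tested. In old knockout Mef2c was at 96.3, 18.9 and 38.9 CPM (51.4 ± 40.2), so that this group held both the second highest and the lowest of the 12 libraries. The knockout difference was 0.95 ± 0.48 (SE) on the log2 scale in young mice and 0.42 with GC offsets. In old mice it was 0.12 ± 0.48, and 1 library decided its sign: it was -0.73 without old knockout replicate 1 and 1.04 without replicates 2 and 3, the libraries with Y-linked reads, which leaves replicate 1 alone. With GC offsets it was -0.29. Ageing went with 0.11 ± 0.47 in wild type and -0.72 ± 0.48 in knockout, the latter -1.62 without old knockout replicate 1 and 0.14 without replicates 2 and 3.

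Within the knockout, the libraries low in Mef2c were also those low in markers of differentiating muscle cells (11 genes, among them Myog, Myh3 and Acta1). The summed level of these markers was 3170, 2981 and 1910 CPM in young knockout and 4140, 1700 and 2011 CPM in old knockout, in replicate order. In wild type it ranged from 2605 to 4004 CPM, where Mef2c stayed between 33.4 and 52.6 CPM. At a similar marker level of 2960 to 2981 CPM, Mef2c was at 51.4 CPM in young wild type replicate 1 and at 52.6 CPM in old wild type replicate 2. It was at 103.1 CPM in young knockout replicate 2, the only knockout library at that marker level, so nothing is read from this. Of other cell types that use Mef2c, macrophage markers (12 of 12 detected) summed to 26.8 to 53.1 CPM in young wild type, 142 to 161 CPM in old wild type, 21.7 to 172 CPM in young knockout and 18.1 to 91.5 CPM in old knockout. Endothelial markers (9 genes) summed to 28.0 to 85.0 CPM over all libraries. The part of differentiating muscle cells, myofibres, macrophages and endothelial cells in the Mef2c values was not tested. In such bulk samples, fewer cells of a type and less RNA per cell cannot be told apart.

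**Figure D2:**
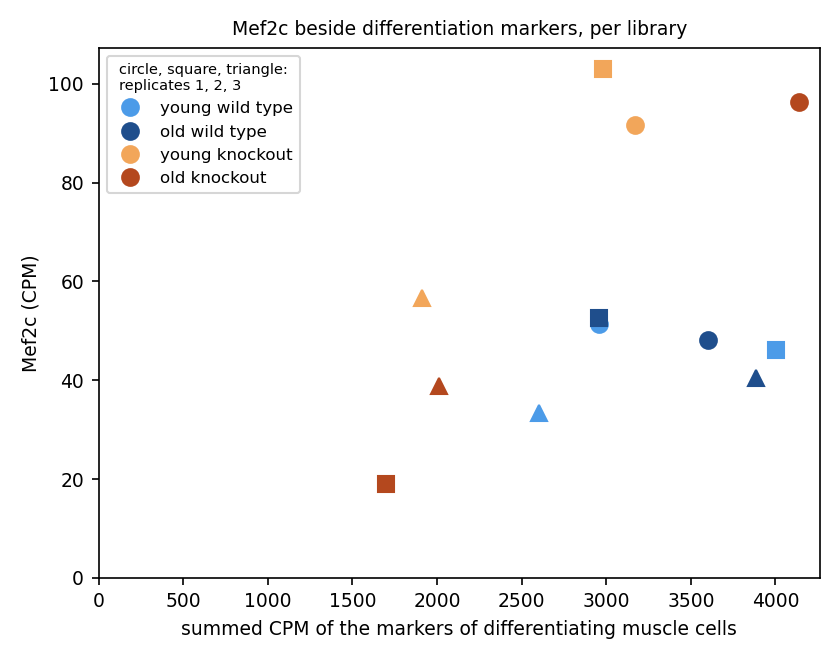
Mef2c level (CPM) against the summed CPM of 11 markers of differentiating muscle cells, 1 point per library, coloured by group. The old knockout libraries spread from 18.9 CPM of Mef2c at 1700 CPM of markers to 96.3 CPM at 4140 CPM, while the wild-type libraries stayed between 33.4 and 52.6 CPM.

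Mef2b, known in the mouse mainly from germinal-centre B cells, was at the limit of detection. The 3 young wild-type libraries held 4, 2 and 1 of its reads and the old ones 0, 6 and 3. The young knockout libraries held 0, 1 and 3 and the old ones 1, 1 and 0, which makes 22 reads in all. A count of 0 allows up to 3 reads per library, which is 0.146 to 0.872 CPM at these depths, counting error only. Only 2 libraries exceeded 3 reads, so a difference between the groups was not detectable at this depth. Markers of B cells (6 genes) summed to 4.74 to 16.8 CPM, most of it Ebf1, with group means of 4.03 to 9.54 CPM. The group means of the other markers were at most 0.951 CPM, with Pax5 and Ms4a1 at 0 in young wild type. In the GENCODE annotation Mef2b overlaps its neighbour Borcs8 on the same strand, so that its few reads are uncertain.

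Read per length, Mef2a and Mef2d were the leading members in wild type and Mef2c was lower. Per kilobase of the longest annotated transcript (5538 bases for Mef2a, 6277 for Mef2c and 5401 for Mef2d), young wild type held 25.8 CPM of Mef2a, 26.5 of Mef2d and 6.96 of Mef2c. If instead all annotated exons are counted as the length, 14681 bases for Mef2a but 5985 for Mef2d, the levels were 9.74 and 23.9 CPM per kilobase. In young knockout the order of these genes turned with the choice of length: Mef2a and Mef2d were at 25.0 and 13.0 CPM per kilobase of longest transcript, and at 9.42 and 11.7 CPM per kilobase of all exons. Mef2c was below both in wild type by either length. As a share of the 3 genes per kilobase of longest transcript, Mef2d made up 44.9% ± 4.11 (SD, n = 3) of the wild-type pool in young mice and 45.2% ± 2.26 in old mice. In knockout it made up 25.6% ± 5.51 in young mice and 23.8% ± 4.03 in old mice. The share of Mef2c was 11.8% ± 2.47, 11.0% ± 1.71, 25.8% ± 6.01 and 16.3% ± 9.24 in the same order of groups.

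**Figure D3:**
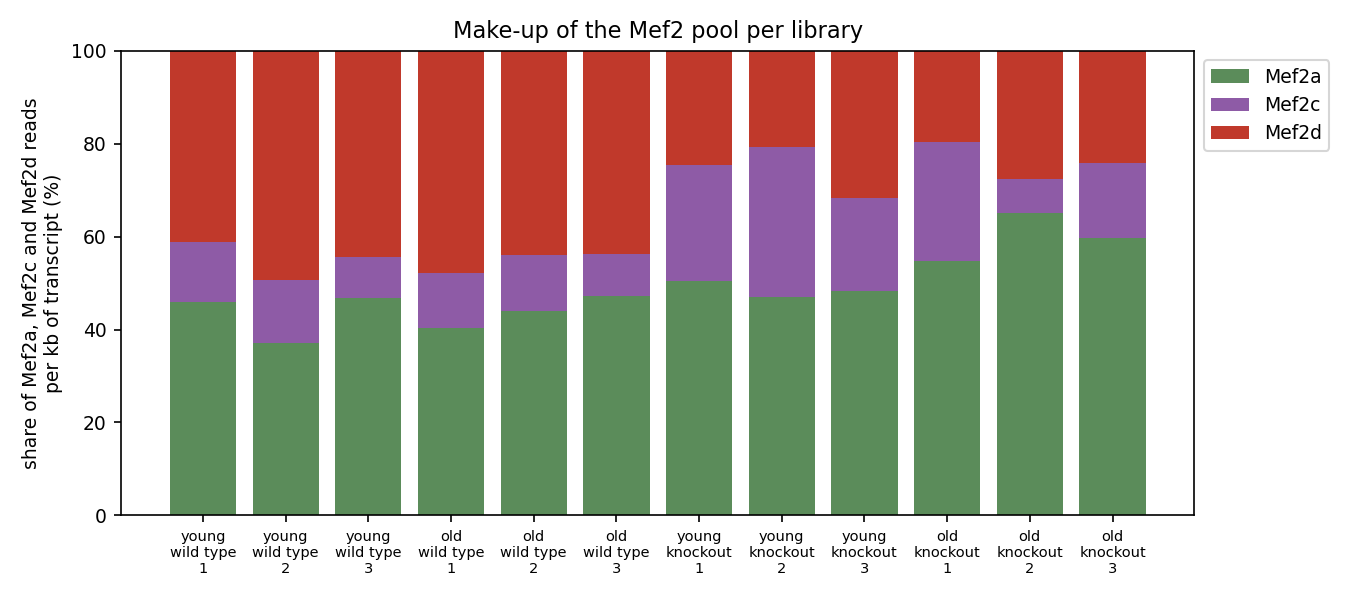
Share of Mef2a, Mef2c and Mef2d among the reads of the 3 genes, per kilobase of longest transcript, in each of the 12 libraries (percent, stacked to 100). Mef2d took 41.2% to 49.3% in the wild-type libraries and 19.6% to 31.6% in the knockout libraries.

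A ratio of 2 genes inside a library does not depend on how libraries are scaled. Mef2d reads per Mef2a read were 0.875 to 1.29 in young wild type and 0.906 to 1.16 in old wild type. They were 0.430 to 0.640 in young knockout and 0.349 to 0.414 in old knockout. Both knockout groups lay below both wild-type groups, and old knockout lay below young knockout. The fitted knockout difference of Mef2d less that of Mef2a was -0.98 in young and -1.38 in old mice on the log2 scale, and -0.26 and -0.81 with GC offsets. Summed over the family, reads made up 330 ± 25.3 CPM in young wild type, 381 ± 20.9 in old wild type, 293 ± 39.4 in young knockout and 263 ± 67.6 in old knockout (SD, n = 3).

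**Figure D4:**
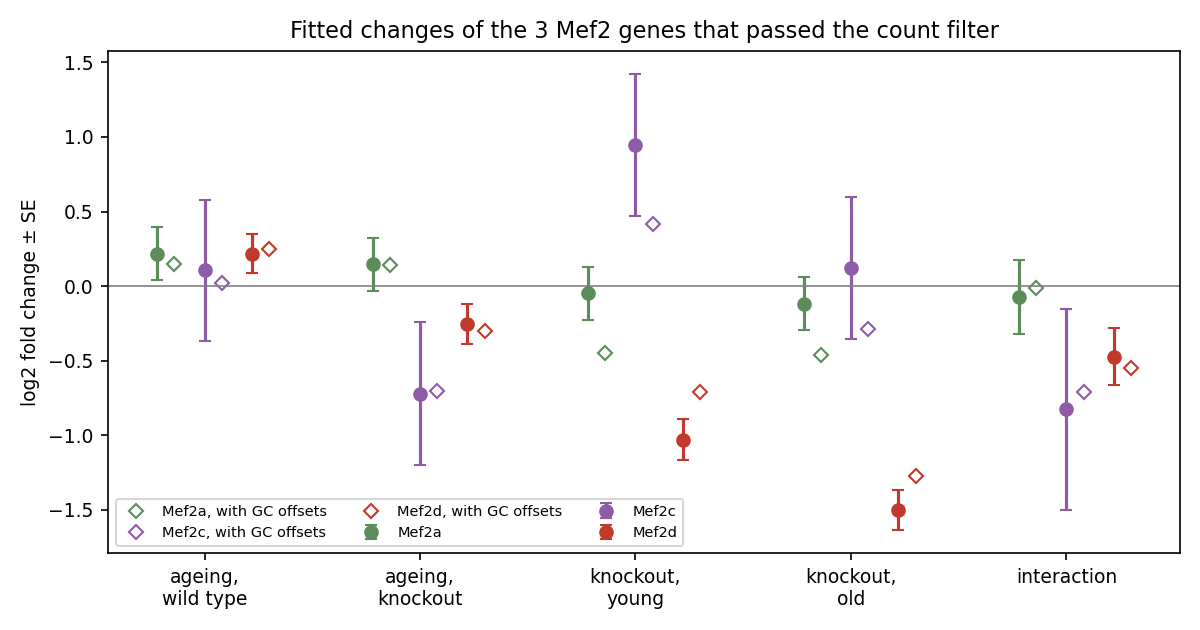
Fitted log2 fold changes of Mef2a, Mef2c and Mef2d with their standard errors in 5 comparisons (filled circles), and the same with GC offsets (open diamonds). Mef2d was at -1.03 and -1.50 for knockout against wild type in young and old mice, and at -0.71 and -1.27 with GC offsets; the SE of Mef2c was 0.47 or more in every comparison.

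How common such changes were across all 13540 genes tested sets the scale for the family. At an adjusted p under 0.05 (edgeR's quasi-likelihood test, Benjamini-Hochberg), 20.9% of genes differed between knockout and wild type in young mice. Of all genes, 10.9% were higher and 10.0% lower. In old mice 16.7% differed, 9.52% higher and 7.21% lower. Ageing changed 1.06% of genes in wild type and 0.0148% in knockout, and the interaction 0.0148%. At an unadjusted p under 0.05 these were 1918, 1316 and 1316 genes. Groups that did not overlap were found for 35.7% of genes between young knockout and young wild type (Mef2c and Mef2d of the 3), and for 42.0% in old mice (Mef2d). They were found for 26.8% with ageing in wild type (Mef2d) and for 11.6% with ageing in knockout (0 of 3). As the members were picked with these results known, no test result is given for them and nothing is read from their overlaps.

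The genes whose levels followed a member most closely over the 12 libraries were named among 11812 genes by Pearson's r, as a description. For Mef2d they were Ewsr1 (r = 0.989), Nol6 (0.98) and Pcgf2 (0.975), with GC contents of 53.2%, 57.1% and 54%, and all 12 libraries fall into 2 sets by genotype. For Mef2c they were Fndc5 (0.947), Bcl2l11 (0.909) and Mylk4 (0.893), and for Mef2a they were Sh2d5 (0.888), Ubp1 (0.864) and Nespas (0.841). Between members r was 0.0806 for Mef2a and Mef2c, 0.25 for Mef2a and Mef2d and -0.211 for Mef2c and Mef2d.

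Lists were read for repressors, kinases and phosphatase, coactivators, partner factors, targets, splicing factors and relatives of MEF2, and for the 2 genomic neighbours of Mef2b (Borcs8 and Rfxank), 89 genes in all, of which 86 were tested (Mapk13, Smpx and Ppargc1a were not). With ageing, 0 of 86 passed the test in wild type and 0 in knockout. Between knockout and wild type, 9 were higher and 11 lower in young mice, and 6 higher and 8 lower in old mice. These are 23.3% and 16.3% of the 86, beside 20.9% and 16.7% of all genes tested, so the lists as a whole were near the background. The median log2 difference was -0.11 in young and -0.25 in old mice, beside -0.02 and -0.01 over all genes tested. The 2 comparisons share no library, but they come from 1 fit, and the GC and Lars2 difference is in the knockout libraries of both ages. Of the genes called, 5 were higher at both ages (55.6% of the young and 83.3% of the old list) and 6 were lower at both (54.5% and 75%). The same overlap over all genes tested is not given here, so nothing is read from these shares. With GC offsets 2 were higher and 4 lower in young mice, and 4 and 2 in old mice. Of the genes named below, 5 of 19 stayed past the threshold with GC offsets in young mice and 3 of 14 in old mice, with no change of sign under any alternative run. Without the 2 old knockout libraries with Y-linked reads, the counts were 8 and 12 in young mice and 0 and 0 in old mice; the old knockout is then 1 library, replicate 1, which is assumed to vary like the other groups. Leaving out 1 library at a time gave 5 to 10 higher and 6 to 15 lower in young mice, with the fewest higher without young wild type replicate 2 and the fewest lower without young knockout replicate 2. In old mice it gave 2 to 10 and 1 to 15. There the fewest lower came without old knockout replicate 3 and the fewest higher without old wild type replicate 1. Another run left out the libraries with most reads outside genes, old wild type replicate 2 and old knockout replicate 3. It gave 6 higher and 10 lower in young mice, and 0 and 0 in old mice, so the old calls named below depended on these libraries.

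Among coactivators, 3 of 9 were lower and 1 higher at both ages, where 10.0% of all genes were lower and 10.9% higher in young mice, and 7.21% and 9.52% in old mice. Mamstr, a muscle coactivator that binds MEF2, was at 79.8, 78.8 and 61.6 CPM in young wild type and 38.4, 29.9 and 20.4 CPM in young knockout, with no overlap, and its log2 difference was -1.29 ± 0.20 (SE, adjusted p = 0.00127). In old mice the levels were 64.3, 60.4 and 62.8 CPM against 28.4, 37.9 and 35.7 CPM, a difference of -0.88 ± 0.20 (adjusted p = 0.011). Vgll2, a TEAD and MEF2 cofactor of skeletal muscle, fell from 118 ± 15.3 to 53.2 ± 5.53 CPM in young mice (-1.15, adjusted p = 0.00137) and from 93.3 ± 8.32 to 50.8 ± 13.4 CPM in old mice (-0.88, adjusted p = 0.00737). Carm1, an arginine methyltransferase, fell by 0.77 in young mice and by 0.71 in old mice (adjusted p = 0.0159 and 0.0293). Kat2b, the acetyltransferase PCAF, rose by 0.70 and 0.74 (adjusted p = 0.0114 and 0.0128), from 47.2 ± 1.25 to 77.4 ± 19.7 CPM in young mice. With GC offsets the differences in young and old mice were -0.99 and -0.66 for Mamstr, -0.68 and -0.57 for Vgll2, -0.37 and -0.43 for Carm1, and 0.58 and 0.62 for Kat2b. Of these, Mamstr and Vgll2 in young mice and Kat2b in old mice stayed past the threshold.

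Of the 6 repressors, Hdac7, a class IIa deacetylase, was lower at both ages. It was at 54.9, 58.3 and 54.4 CPM in young wild type and 28.4, 14.4 and 21.4 CPM in young knockout (-1.38 ± 0.20, SE, adjusted p = 0.00105). In old mice it was at 42.1 ± 4.24 and 24.8 ± 3.15 CPM (SD, n = 3; -0.75 ± 0.20, adjusted p = 0.024). With GC offsets Hdac7 was at -0.93 in young mice, past the threshold, and at -0.43 in old mice, not past it. The remaining 5 repressors did not pass the test at either age. The call of Hdac7 is 16.7% of the list at each age, beside 20.9% of all genes tested in young and 16.7% in old mice.

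Of the 25 kinases and phosphatase subunits tested, 5 were higher and 3 lower in young knockout, and 3 higher and 1 lower in old knockout. These are 32% and 16% of the list, beside 20.9% and 16.7% of all genes. Ppp3r1, the regulatory subunit of calcineurin, was higher at both ages, by 0.81 in young and 0.70 in old mice (adjusted p = 0.004 and 0.0119). Csnk2a1, a catalytic subunit of casein kinase II, was higher by 0.75 and 0.58 (adjusted p = 0.00291 and 0.0145). Mapk7, the kinase Erk5, was lower, at -0.66 and -0.49 (adjusted p = 0.0104 and 0.0464). In young mice Prkd3 and Ppp3cb were also higher, by 0.70 and 0.63, and Cdk5 and Map2k3 lower, at -0.63 and -0.56. Ppp3cb was past the threshold in 3 of the 12 fits that left out 1 library, Map2k3 in 5, and Mapk7 in old mice in 3. Ppp3ca, outside the rule for naming and chosen after its values were seen, completed the 5 higher, at 0.44 (adjusted p = 0.0442). In old mice Prkd1, a kinase of class IIa deacetylases, was higher by 0.82 (adjusted p = 0.0233). With GC offsets the differences in young and old mice were 0.35 and 0.33 for Ppp3r1, 0.46 and 0.33 for Csnk2a1, and -0.25 and -0.21 for Mapk7. In young mice they were 0.43 for Prkd3, 0.046 for Ppp3cb, -0.37 for Cdk5 and -0.28 for Map2k3, and in old mice 0.81 for Prkd1. Of these, Csnk2a1 in young mice and Prkd1 in old mice stayed past the threshold, and Ppp3ca did not.

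Of 24 tested targets of MEF2, 1 was higher and 1 lower in young knockout, and 1 higher and 2 lower in old knockout. These are 8.33% and 12.5% of the list, beside 20.9% and 16.7% of all genes. Stac3, a component of excitation-contraction coupling in muscle, was at 41.4, 47.8 and 39.6 CPM in young wild type and 27.3, 24.8 and 14.2 CPM in young knockout (-0.93, adjusted p = 0.0113). In old mice it was at 39.7 ± 9.78 against 19.7 ± 0.71 CPM (-1.01, adjusted p = 0.011). Srpk3, a muscle serine/arginine-rich protein kinase, was lower in old knockout, at -1.05 (adjusted p = 0.0353), from 13.9 ± 3.13 to 6.71 ± 3.17 CPM. Klf6, a zinc-finger factor, was higher at both ages, by 0.44 and 0.75 (adjusted p = 0.0454 and 0.00636), and in young mice it was past the threshold in 4 of the 12 fits that left out 1 library. The list shares Ckm, Mb and Des with the marker lists of differentiating muscle, fibre and satellite cells. With GC offsets Stac3 was at -0.62 in young mice and at -0.79 in old mice, the latter past the threshold. Klf6 was then at 0.057 and 0.42, and Srpk3 in old mice at -0.84, none of them past it.

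Of 10 partner factors, Tcf3, the E-protein partner of MyoD, was lower in young knockout (-0.69, adjusted p = 0.00525), and Myod1, Myog and Myf5 did not pass the test. The partner calls were 10% of the list in young and 0% in old mice, beside 20.9% and 16.7% of all genes tested. Of 7 splicing factors, Mbnl2 and Celf2 were higher in young knockout, by 0.74 and 0.63 (adjusted p = 0.00404 and 0.0147). In old knockout Celf2 was higher by 0.59 and Rbfox2, which promotes muscle exons, lower, at -0.51 (adjusted p = 0.0249 and 0.0255). The splicing calls were 28.6% of the list at each age. With GC offsets Mbnl2 was at 0.78 and stayed past the threshold. Tcf3 was then at -0.22, Celf2 at 0.22 in young and 0.24 in old mice, and Rbfox2 at -0.39, none past it. Mrtfa, an SRF coactivator listed as Mkl1, was lower, at -0.81, in young knockout (adjusted p = 0.0147). Borcs8, the neighbour of Mef2b listed as 2310045N01Rik, was lower, at -0.94, in young knockout (adjusted p = 0.0117). Of the 3 SRF and MRTF genes 33.3% were called in young and 0% in old mice, and of the 2 neighbours 50% and 0%. With GC offsets Mrtfa and Borcs8 were at -0.39 and -0.57, not past the threshold.

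**Figure D5:**
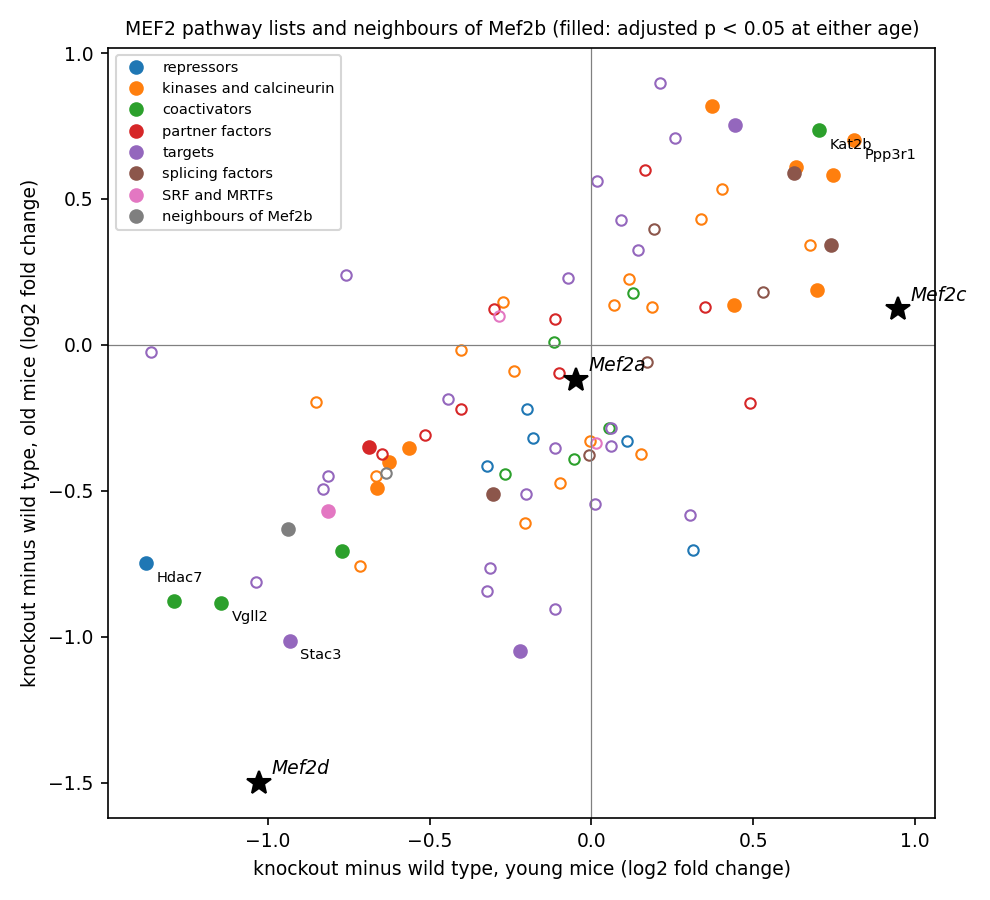
Log2 fold changes of the 86 tested genes of the MEF2 lists, the 2 neighbours of Mef2b included, between knockout and wild type in young mice (horizontal) and old mice (vertical), coloured by role, with filled points past an adjusted p of 0.05 at either age and stars for the Mef2 genes. Mef2d lies at the lower left, at -1.03 and -1.50, beyond Stac3 at -0.93 and -1.01 and near Hdac7, Mamstr and Vgll2 in the young comparison.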

How the data were processed

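RNA-seq of 12 libraries was used. The deposited files hold raw counts of reads per gene symbol, 1 file per library, made by the authors with TopHat and HTSeq on build mm9, per the submitters' processing notes, which also name DESeq2. Versions, filters and the use of strand in counting are not given in the sources used here; libraries kept strand and were depleted of ribosomal RNA, per the labels' protocols. Counting rows that name no gene held 32.2% to 70.8% of reads outside genes per library and were left out.

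The counts were fitted with edgeR 4.0.16 in R 4.3.3 (TMM scaling, filterByExpr, robust quasi-likelihood fit with 1 mean per group over all 12 libraries), which left 13540 of 22310 genes. P-values were adjusted by Benjamini-Hochberg over all genes tested, with a threshold of 0.05. CPM uses TMM-scaled library sizes. Standard errors were derived from the fold change and its F statistic. Counting intervals and limits cover counting error only. Gene length and GC content came from GENCODE M21 by symbol (92.3% of symbols matched), not from mm9, and serve as properties only. GC offsets were lowess curves per library (span 0.3). The fitting was tested on simulated data.

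The members and the lists were chosen with earlier results of these data known. Per list, comparison and direction, up to 4 genes past the threshold with the largest changes were named. Same-numbered libraries of different groups did not deviate together (correlations -0.261 to 0.231), so numbers were not treated as pairs. Alternatives were other scalings and filters, DESeq2, limma-voom, the groups compared alone, a replicate block, GC and length offsets, and leaving out libraries.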

Additional observations from a re-analysis of the deposited data

How the results depend on the processing

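Called genes, over the libraries left out one at a time, ranged from 6 to 458 for ageing in wild type (144 in the full fit; fewest without old wild type replicate 3, most without young knockout replicate 3). They ranged from 0 to 102 for ageing in knockout (2; most without old knockout replicate 1), 1479 to 3140 for the young knockout (2831; fewest without young wild type replicate 2), 779 to 3144 for the old knockout (2265; fewest without old knockout replicate 3) and 0 to 116 for the interaction (2; most without young knockout replicate 3). For ageing in wild type they were 83 with library size alone, 462 by DESeq2, 351 by limma-voom, 913 with the groups compared alone and 2 without the libraries with most reads outside genes (old wild type replicate 2 and old knockout replicate 3). For ageing in knockout they were 0 with upper-quartile scaling or the groups compared alone, 38 without a filter, 136 by DESeq2, 13 by limma-voom, 17 with GC and length offsets, 15 without the Y-linked libraries and 1 without the libraries with most reads outside genes. For the young knockout they were 1536 with the groups compared alone, 951 once GC was corrected and 1172 with GC and length offsets. For the old knockout they were 1047, 1337, 121 (without the Y-linked libraries) and 3 (without the libraries with most reads outside genes). For the interaction they were 4 with library size alone, 6 without a filter, 58 by DESeq2, 1 by limma-voom or with GC and length offsets, and 0 without either pair of libraries.

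The replicate block, which is no pairing by the design, gave 79 genes for ageing in wild type and 0 for ageing in knockout. With GC offsets and the replicate block there were 61, 0, 614 (young knockout) and 682 (old knockout), and the log2 differences were 0.25 for Mef2d with ageing in wild type, -0.46, 0.43 and -0.72 for Mef2a, Mef2c and Mef2d in young knockout, and -0.48 and -1.27 for Mef2a and Mef2d in old knockout.

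For Mef2d with ageing in wild type the log2 difference was 0.30 with library size alone, 0.25 with upper-quartile scaling or GC offsets, 0.19 without a filter, 0.26 with GC and length offsets, 0.20 without the Y-linked libraries and 0.24 without those with most reads outside genes. With GC and length offsets it was -0.57 for Mef2a, 0.31 for Mef2c and -0.72 for Mef2d in young knockout, and -0.46 and -1.25 for Mef2a and Mef2d in old knockout. With GC offsets alone these were -0.45, 0.42 and -0.71, and -0.46 and -1.27. Library size alone gave -0.36 and -1.74 for Mef2a and Mef2d in old knockout, where it shifted the median of all genes by -0.25. Without the Y-linked libraries the old knockout is replicate 1 alone, assumed to vary like the other groups, and it gave 0.13 for Mef2a and 1.04 for Mef2c, and the interaction 0.053 for Mef2c. Leaving out 1 library gave -1.62 to -0.30 for Mef2c with ageing in knockout, -1.11 to -0.84 for Mef2d in young knockout, -0.73 to 0.55 for Mef2c in old knockout, and -1.73 to -0.40 and -0.64 to -0.39 for Mef2c and Mef2d in the interaction. The cause of these movements was not tested. Mef2d stayed negative in both knockout comparisons under all 26 alternatives. Among the members only Mef2b failed the count filter. The fewest reads in any library were 134 for Mef2c, 173 for Mef2d and 438 for Mef2a.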
